A study of Mus musculus with 24 samples.

Results

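A set of 9 interferon-stimulated genes, chosen by symbol, was followed across white and brown fat cell cultures given EGCG or its solvent. Ifit1, Ifit2, Ifit3, Isg15, Irf7, Stat2, Usp18, Rsad2 and Oasl2 each matched 1 identifier, which gave 9 of the 37310 genes measured, and all 9 passed the filter on low values that left 14095 genes for testing. The cells were stromal vascular fractions of fat from C57BL/6 mice, 6 weeks old, taken from the inguinal white depot (WAT) or the interscapular brown depot (BAT), grown to near confluence and differentiated in culture. An induction medium with insulin, dexamethasone and 3-isobutyl-methylxanthine was given for 4 days, followed by a medium with insulin and triiodothyronine. EGCG (epigallocatechin gallate, a catechin of green tea) was added at a dose that the labels do not give, controls had DMSO, and cells were harvested on day 4 or day 8, so that depot, day and treatment formed 8 groups of 3 libraries. The cultures are a mixed fraction of fat, and the labels do not say whether the 3 replicates of a group were separate isolations, so p-values measure only the spread between these libraries, which may be technical.

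Type I interferons bind the receptor pair IFNAR1 and IFNAR2, whose kinases JAK1 and TYK2 phosphorylate STAT2. With IRF9 this is part of the ISGF3 complex, which binds interferon-stimulated response elements in the promoters of antiviral genes. Stat2 encodes an ISGF3 subunit and Irf7 a transcription factor that amplifies interferon production. Isg15 encodes a ubiquitin-like modifier, Usp18 the protease that removes it and dampens the receptor, and Ifit1, Ifit2, Ifit3, Rsad2 and Oasl2 encode antiviral effectors.

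Promoter sequence is shown first because the response element is what these genes are known to share. The genes were chosen by symbol as interferon-stimulated, so a high share holding the element can come with that choice. RefSeq windows of the mouse build GRCm38.p6, from 250 bases before to 50 after the annotated start, were given for 8 of the 9 genes, all but Usp18. The core searched, on either strand, was 2 copies of GAAA with 2 bases between them. It was found in 5 of the 8 genes, against 3.99% of the 27025 genes with a window. Each of the 60-base stretches below reads toward the gene, with the matches in capitals.
Isg15: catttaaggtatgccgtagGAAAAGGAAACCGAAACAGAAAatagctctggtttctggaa
Ifit1: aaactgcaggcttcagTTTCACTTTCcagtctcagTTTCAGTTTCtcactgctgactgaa
Ifit3: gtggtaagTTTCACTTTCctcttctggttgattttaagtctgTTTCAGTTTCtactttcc
Rsad2: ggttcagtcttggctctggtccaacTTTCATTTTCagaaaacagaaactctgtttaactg
Stat2: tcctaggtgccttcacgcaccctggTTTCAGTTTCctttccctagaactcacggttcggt

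These stretches lie at chr4:156200856-156200915 on the minus strand for Isg15, chr19:34640769-34640828 on the plus strand for Ifit1, chr19:34583365-34583424 on the plus strand for Ifit3, chr12:26456538-26456597 on the minus strand for Rsad2 and chr10:128270251-128270310 on the plus strand for Stat2. In Isg15 3 overlapping matches begin 78, 72 and 66 bases before the start. Ifit1 and Ifit3 hold 2 matches each, beginning 104 and 85 bases before the start in Ifit1 and 156 and 122 in Ifit3. Single matches begin 120 bases before the start in Rsad2 and 222 in Stat2. The windows of Ifit2, Irf7 and Oasl2 hold no match, which says only that these letters are not in these windows. The STAT dimer element, TTC and GAA with 3 bases between them, was found in 1 of the 8 genes, Ifit2, against 9.55% of all genes with a window.

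The expression tables use the older build NCBIM37 (mm9), in which the 9 protein-coding genes lie on 7 chromosomes. The Ifit genes are neighbours on the plus strand of chromosome 19, with Ifit2 at chr19:34625184-34650909, Ifit3 at chr19:34658021-34663221 and Ifit1 at chr19:34715361-34724499. Isg15 lies at chr4:155573533-155574927, Irf7 at chr7:148448605-148452380 and Rsad2 at chr12:27127618-27141317, all on the minus strand. Stat2 lies at chr10:127707629-127729905, Usp18 at chr6:121195924-121220934 and Oasl2 at chr5:115346943-115362243, all on the plus strand. Irf7 overlaps Phrf1, with which its reads could be shared.

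Expression was measured as FPKM (reads per gene divided by gene length and by library depth), so levels can be compared between genes. Replicates 1 and 2 had been tabulated together and replicate 3 in a second, separately made table. Replicates 1 and 2, with 39452696 to 52893848 reads on genes, were tested with limma on log2(FPKM + 1), and replicate 3, with 16392420 to 41675643 reads, is given beside them with no test. The log2 differences are on that scale, which understates the change of low genes. In replicate 3 of the WAT day 8 EGCG group 5 genes took 61.0% of the reads, against 3.64% to 10.5% in the others, so that the FPKM of every other gene is depressed there.

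Isg15, the ubiquitin-like modifier, reached the highest level of the 9 genes. In WAT controls it stood at 25.8, 31.6 and 29.9 FPKM in replicates 1, 2 and 3 on day 4 and at 136, 122 and 121 FPKM on day 8. With EGCG the WAT libraries held 1.35, 1.19 and 1.41 FPKM on day 4 and 15.5, 15.5 and 6.76 FPKM on day 8. All 3 EGCG libraries lay below all 3 controls on each day, and the depressed replicate 3 of day 8 was the lowest of its group. In BAT controls the levels were 11.8, 12.3 and 9.92 FPKM on day 4 and 46.9, 30.8 and 42.9 FPKM on day 8, and with EGCG they were 1.45, 1.56 and 2.70 FPKM on day 4 and 26.3, 31.4 and 22.0 FPKM on day 8. The BAT groups were apart on day 4 and overlapped on day 8.

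**Figure D1:**
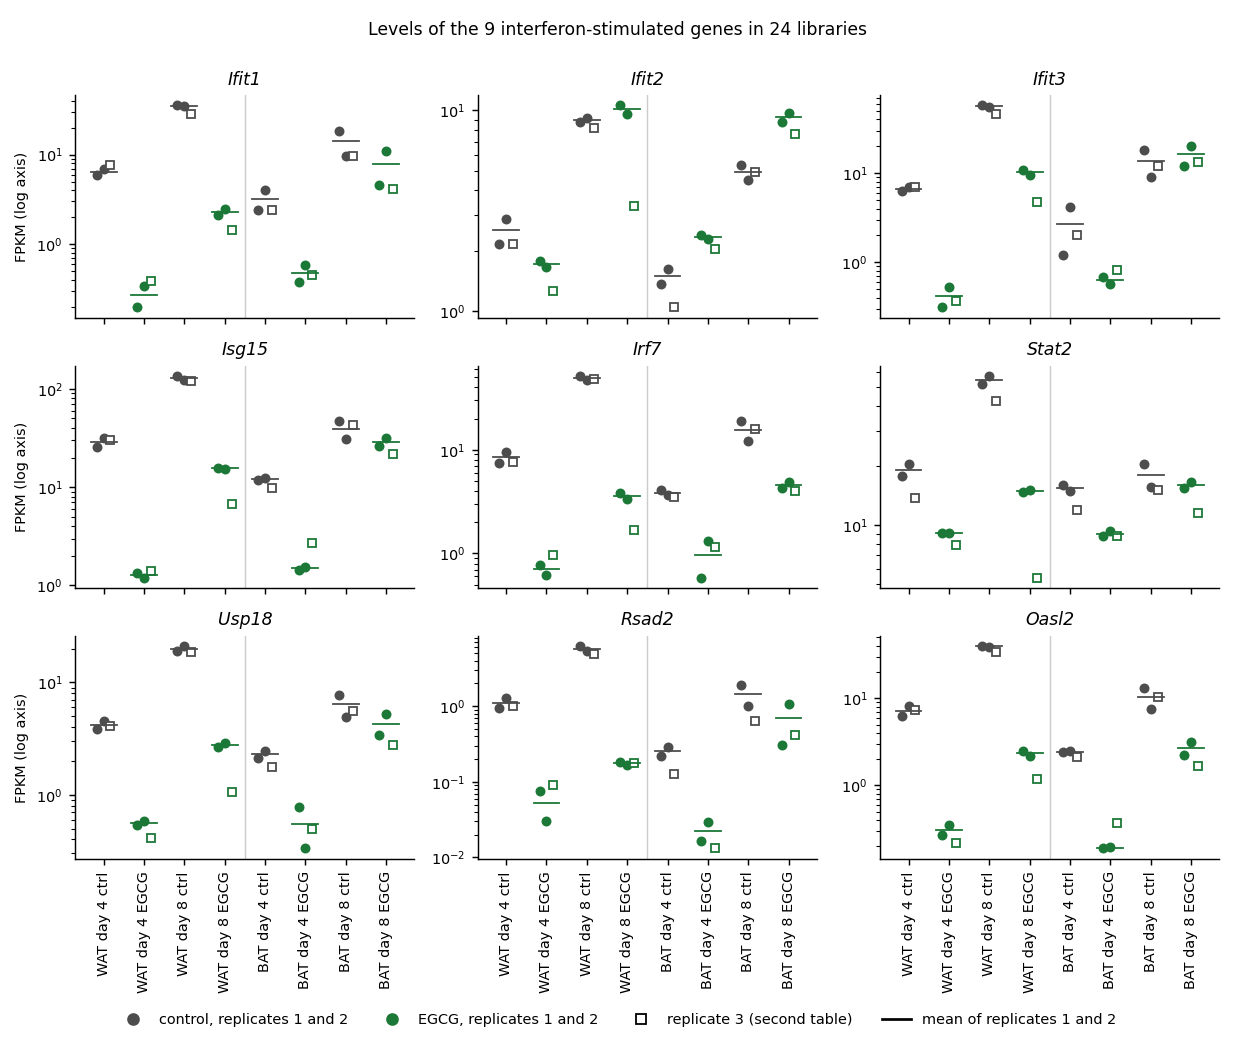
FPKM of the 9 genes on log axes in each of the 24 libraries, by group; filled circles are replicates 1 and 2, open squares replicate 3 of the separately made table, and lines the mean of replicates 1 and 2. WAT day 8 controls are the highest group for each gene but Ifit2, and BAT day 8 EGCG libraries overlap their controls for 6 of the 9 genes.

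The question asked of each depot and day was how EGCG changed expression during differentiation. In WAT on day 4 all 9 genes were lower with EGCG at an adjusted p under 0.05, where 19.3% of the 14095 genes tested were lower and 34.4% higher. The median log2 change of the 9 was -2.44, against 0.09 for all genes tested. None of the 9 overlapped between its 3 EGCG and 3 control libraries, with replicate 3 taken from the separately made table, where 53.5% of genes tested did not overlap in either direction. Whether fewer cells expressed these genes or each cell held less of their RNA cannot be told apart in bulk libraries.

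The ubiquitin-like modifier Isg15 had the largest log2 change, from 28.7 ± 4.08 FPKM in controls to 1.27 ± 0.112 with EGCG (SD, n = 2), 22.6-fold lower and a log2 change of -3.70 ± 0.16 (SE, limma adjusted p = 7.37e-09). By the ratio of means the lower genes Ifit1 and Oasl2 fell by more, 24.02-fold and 23.4-fold. Its protease Usp18 went from 3.89, 4.54 and 4.14 FPKM to 0.538, 0.582 and 0.410 FPKM, a log2 change of -1.74 ± 0.20 (limma adjusted p = 1.98e-05). Both ISG15-cycle genes were thus lower in every EGCG library than in every control.

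Among the transcription factors, Irf7 went from 7.38, 9.56 and 7.55 FPKM in WAT day 4 controls to 0.780, 0.623 and 0.972 FPKM with EGCG. The log2 change of Irf7 was -2.47 ± 0.20 (limma adjusted p = 1.33e-06). Stat2, the ISGF3 subunit, moved less, from 17.6, 20.3 and 13.7 FPKM to 9.13, 9.14 and 7.85 FPKM, a log2 change of -0.97 ± 0.10 (limma adjusted p = 1.13e-05). Stat2 had the highest level of the 9 genes in these EGCG libraries, where Isg15 and Ifit2 were under 2 FPKM and the other 6 under 1 FPKM.

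Of the Ifit genes, whose products bind viral RNA or the complexes around it, Ifit1 went from 5.92, 6.94 and 7.74 FPKM to 0.196, 0.339 and 0.385 FPKM in WAT on day 4. Ifit1 was 24.02-fold lower in the mean of replicates 1 and 2, a log2 change of -2.55 ± 0.33 (limma adjusted p = 5.47e-05). Ifit3 went from 6.35, 7.002 and 7.03 FPKM to 0.312, 0.529 and 0.367 FPKM, a log2 change of -2.44 ± 0.37 (limma adjusted p = 0.000171). Ifit3 has a near-identical neighbour, Ifit3b, with which reads may have been split, and its values are uncertain to that extent. Ifit2 changed least of all 9 genes, from 2.17, 2.89 and 2.17 FPKM to 1.77, 1.67 and 1.26 FPKM, a log2 change of -0.37 ± 0.10 (limma adjusted p = 0.0104). Its call was lost without control replicate 2 (-0.22, limma adjusted p = 0.114), without EGCG replicate 2 (-0.34, limma adjusted p = 0.054), and when both tables were fitted together (-0.41, limma adjusted p = 0.131).

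Oasl2, an oligoadenylate synthetase-like protein, went from 6.30, 8.18 and 7.38 FPKM to 0.269, 0.350 and 0.218 FPKM in WAT on day 4, a log2 change of -2.64 ± 0.19 (limma adjusted p = 5.80e-07). Rsad2, which encodes the antiviral enzyme viperin, was the lowest of the 9 genes, at 0.944, 1.27 and 1.005 FPKM in controls and 0.0758, 0.0307 and 0.0916 FPKM with EGCG, where 14, 6 and 9 reads supported the values. Its log2 change of -0.998 ± 0.21 (limma adjusted p = 0.00159) is compressed by the added 1 FPKM, since the mean was 20.8-fold lower.

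In WAT on day 8, when the controls had their highest levels, 8 of the 9 genes were lower with EGCG, where 18.9% of genes tested were lower and 44.7% higher, and Ifit2 did not pass the test. The 3 libraries of each group did not overlap for 8 of the 9, where 22.4% of genes tested did not overlap. Both values include the depressed replicate 3 with EGCG, which favours separation of lower genes and overlap of higher ones. The share of 22.4% is therefore no even yardstick for the 8. The median log2 change of the 9 was -2.52, against 0.17 for all genes tested. Oasl2 went from 39.5, 39.3 and 33.8 FPKM to 2.51, 2.17 and 1.18 FPKM, a log2 change of -3.60 ± 0.19 (limma adjusted p = 2.75e-08). Irf7 went from 51.5, 47.0 and 48.2 FPKM to 3.81, 3.38 and 1.67 FPKM, a log2 change of -3.45 ± 0.20 (limma adjusted p = 4.84e-08). In these replicates Oasl2 was 16.8-fold and Irf7 13.7-fold lower than in controls. The RNA-binding effector Ifit1 went from 35.5, 34.7 and 28.7 FPKM to 2.12, 2.50 and 1.43 FPKM (log2 change -3.45 ± 0.33, limma adjusted p = 2.71e-06).

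Isg15 was 8.31-fold lower in the mean of replicates 1 and 2 of WAT day 8, a log2 change of -2.97 ± 0.16 (limma adjusted p = 2.32e-08). Usp18 went from 19.04, 21.0 and 18.7 FPKM to 2.65, 2.89 and 1.06 FPKM, a log2 change of -2.48 ± 0.20 (limma adjusted p = 6.03e-07). Every EGCG library again lay below every control for the modifier and its protease. Stat2 went from 52.2, 57.1 and 42.8 FPKM to 14.6, 15.1 and 5.37 FPKM (log2 change -1.81 ± 0.10, limma adjusted p = 4.22e-08), and Ifit3 from 57.4, 55.3 and 46.4 FPKM to 10.95, 9.43 and 4.70 FPKM (log2 change -2.36 ± 0.37, limma adjusted p = 0.00014).

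Rsad2 went from 6.19, 5.35 and 4.94 FPKM in WAT day 8 controls to 0.184, 0.168 and 0.178 FPKM with EGCG, 32.8-fold lower in the mean of replicates 1 and 2 (log2 change -2.52 ± 0.21, limma adjusted p = 7.13e-07). Ifit2 stood at 8.78, 9.16 and 8.15 FPKM in controls and 10.6, 9.65 and 3.36 FPKM with EGCG. Its log2 change of 0.16 ± 0.10 missed the threshold (limma adjusted p = 0.207), became -0.03 with median-ratio scaling and was -0.25 with both tables fitted together, and the low value of replicate 3 is that of the depressed library.

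**Figure D2:**
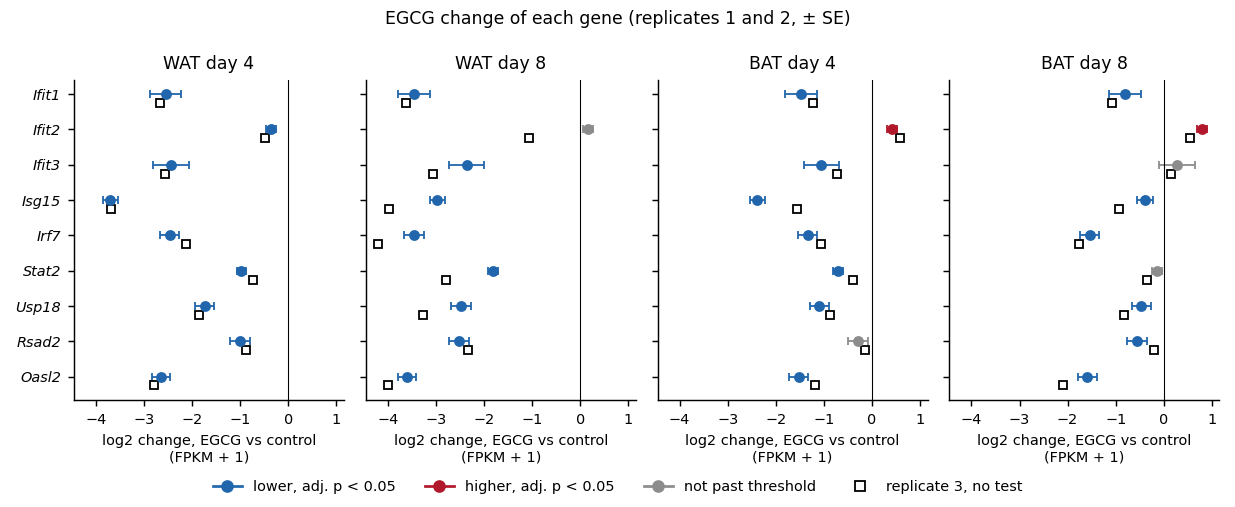
Log2 change with EGCG on the log2(FPKM + 1) scale for each gene in the 4 depot and day combinations; circles with bars are replicates 1 and 2 with the SE, coloured by direction where the adjusted p was under 0.05, and open squares replicate 3 with no test. WAT values lie left of 0 apart from Ifit2 on day 8, and BAT day 8 values spread on each side of 0.

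In BAT on day 4, 7 of the 9 genes were lower with EGCG, where 20.6% of genes tested were lower, and 1 was higher, where 27.9% were higher. The median log2 change of the 9 was -1.10, against 0.03 for all genes tested. None of the 9 genes overlapped between the 3 EGCG and 3 control libraries, where 50.7% of genes tested did not. Oasl2 went from 2.42, 2.46 and 2.10 FPKM to 0.190, 0.195 and 0.371 FPKM (log2 change -1.53 ± 0.19, limma adjusted p = 4.77e-05), and Irf7 from 4.10, 3.64 and 3.51 FPKM to 0.580, 1.33 and 1.16 FPKM (log2 change -1.34 ± 0.20, limma adjusted p = 0.000173). Isg15 again had the largest change on the log2(FPKM + 1) scale, -2.38 ± 0.16 (limma adjusted p = 2.43e-07), and by the ratio of means Oasl2 was lower by more, 12.7-fold against 8.03-fold.

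Ifit1 went from 2.41, 3.99 and 2.42 FPKM in BAT day 4 controls to 0.377, 0.588 and 0.456 FPKM with EGCG (log2 change -1.48 ± 0.33, limma adjusted p = 0.00288). Usp18 went from 2.13, 2.45 and 1.75 FPKM to 0.772, 0.332 and 0.498 FPKM (log2 change -1.10 ± 0.20, limma adjusted p = 0.000683), and Stat2 from 15.8, 14.9 and 11.9 FPKM to 8.73, 9.30 and 8.74 FPKM (log2 change -0.71 ± 0.10, limma adjusted p = 0.000141). Ifit3 was the least even of the controls, at 1.21, 4.19 and 2.01 FPKM against 0.692, 0.569 and 0.821 FPKM with EGCG. Its log2 change of -1.06 ± 0.37 (limma adjusted p = 0.0322) became -0.44 without control replicate 2 (limma adjusted p = 0.331), and without EGCG replicate 1 or 2 the limma adjusted p was 0.086 or 0.116.

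Ifit2 went the other way in BAT on day 4, from 1.37, 1.63 and 1.04 FPKM to 2.39, 2.29 and 2.04 FPKM (log2 change 0.42 ± 0.10, limma adjusted p = 0.00538), so every EGCG library was above every control. With both tables fitted together its limma adjusted p was 0.084. Rsad2 did not pass the test, at 0.220, 0.292 and 0.128 FPKM in controls, from 37, 55 and 9 reads, and at 0.0163, 0.0290 and 0.0132 FPKM with EGCG, from 3, 6 and 1 reads. A count of 3 reads is the floor a library allows, and no fold is given. The log2 change of Rsad2 was -0.30 ± 0.21 (limma adjusted p = 0.261) and became -1.53 with a pseudocount of 0.1 (limma adjusted p = 0.014).

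In BAT on day 8, 6 of the 9 genes were lower with EGCG, where 26.1% of genes tested were lower, and 1 was higher, where 46.5% were higher. Their median log2 change was -0.47, against 0.17 for all genes tested. Ifit2, Irf7 and Oasl2, 3 of the 9, had no overlap between their 3 EGCG and 3 control libraries, where 67.7% of genes tested had none. Irf7 went from 18.96, 12.3 and 15.9 FPKM to 4.29, 4.88 and 3.99 FPKM (log2 change -1.54 ± 0.20, limma adjusted p = 2.18e-05). Oasl2 went from 13.1, 7.60 and 10.4 FPKM to 2.22, 3.18 and 1.67 FPKM (log2 change -1.59 ± 0.19, limma adjusted p = 1.28e-05). Ifit2 rose from 5.32, 4.51 and 4.94 FPKM to 8.75, 9.74 and 7.65 FPKM (log2 change 0.79 ± 0.10, limma adjusted p = 2.28e-05).

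The other 6 genes overlapped between the BAT day 8 groups. Ifit1 stood at 18.5, 9.68 and 9.74 FPKM in controls and 4.62, 11.1 and 4.10 FPKM with EGCG (log2 change -0.81 ± 0.33, limma adjusted p = 0.0444). Rsad2 stood at 1.91, 1.02 and 0.635 FPKM and 0.306, 1.08 and 0.415 FPKM (log2 change -0.56 ± 0.21, limma adjusted p = 0.0285), and Usp18 at 7.81, 4.94 and 5.63 FPKM and 3.39, 5.22 and 2.75 FPKM (log2 change -0.47 ± 0.20, limma adjusted p = 0.0499). In each of them control replicate 1 was the highest control and EGCG replicate 2 the highest EGCG library. Isg15 had a log2 change of -0.39 ± 0.16 (limma adjusted p = 0.0394). The calls of Ifit1, Isg15, Usp18 and Rsad2 were all lost without control replicate 1 or without EGCG replicate 1, which left 3 genes called in each case.

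Ifit3 and Stat2 did not pass the test in BAT on day 8. Ifit3 stood at 18.2, 9.03 and 11.9 FPKM in controls and 12.1, 20.4 and 13.2 FPKM with EGCG (log2 change 0.27 ± 0.37, limma adjusted p = 0.524). Stat2 stood at 20.4, 15.5 and 15.1 FPKM and 15.4, 16.5 and 11.5 FPKM, with a log2 change of -0.15 ± 0.10 (limma adjusted p = 0.203) that became -0.35 with median-ratio scaling (limma adjusted p = 0.011).

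The spread in BAT on day 8 was shared by the 9 genes. All 9 were higher in control replicate 1 than in control replicate 2, by a median of 0.59 on the log2(FPKM + 1) scale, where the median over all genes tested was -0.01 and their SD 0.209. With EGCG all 9 were lower in replicate 1 than in replicate 2, by a median difference of -0.38 with an SD over all genes of 0.176. All 9 were also lower in replicate 1 of the WAT day 4 controls, by a median difference of -0.23. In the other 5 groups the genes went in different directions between replicates.

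**Figure D3:**
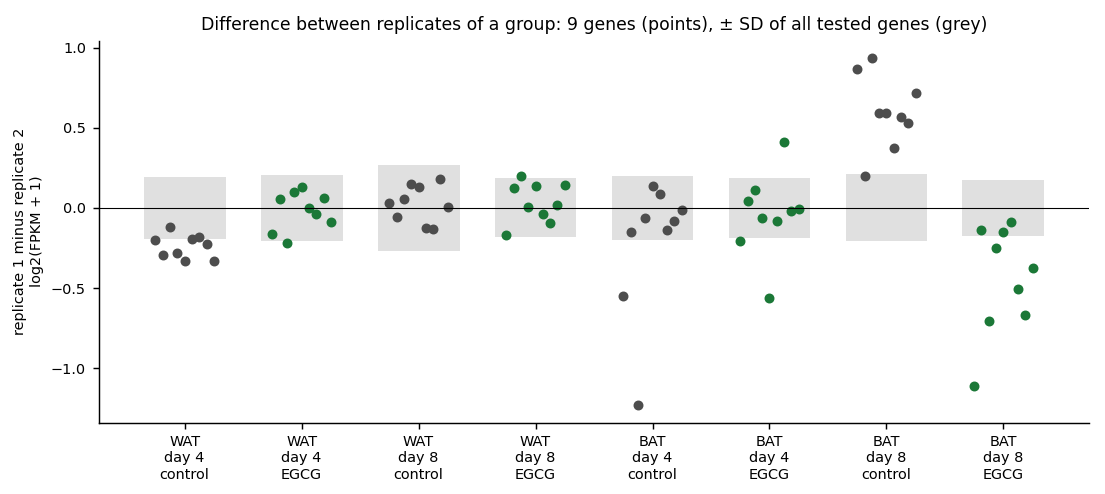
Replicate 1 minus replicate 2 of each group on the log2(FPKM + 1) scale; points are the 9 genes and grey bars span the SD of all genes tested on each side of 0. In BAT day 8 controls all 9 points lie above 0, and in BAT day 8 EGCG and WAT day 4 control libraries all 9 lie below it.

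Levels also rose over differentiation without EGCG. In WAT controls all 9 genes were higher on day 8 than on day 4, where 27.7% of genes tested were higher, with a median log2 difference of 2.13. Ifit3 rose most, 8.44-fold in the mean of replicates 1 and 2 (log2 difference 2.90 ± 0.37, limma adjusted p = 2.96e-05), and Stat2 least, 2.88-fold (log2 difference 1.48 ± 0.10, limma adjusted p = 2.36e-07). Ifit2, the gene with the smallest EGCG change in WAT, rose 3.55-fold over the same days (log2 difference 1.51 ± 0.10, limma adjusted p = 2.13e-07). In BAT controls 8 of the 9 were higher on day 8, where 28.7% of genes tested were higher, with a median log2 difference of 1.58. Stat2 stood apart at 0.20 ± 0.10 (limma adjusted p = 0.101), and was called with median-ratio scaling (0.37, limma adjusted p = 0.008) and without BAT day 8 control replicate 2 (0.39, limma adjusted p = 0.002).

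Between depots, all 9 genes were lower in BAT than in WAT controls on day 4, where 14.4% of genes tested were lower, and on day 8, where 22% were. The median log2 differences were -0.84 and -1.56. On day 8 Ifit3 was 4.14-fold lower in BAT (log2 difference -2.05 ± 0.37, limma adjusted p = 0.000579) and Isg15 3.31-fold lower (log2 difference -1.73 ± 0.16, limma adjusted p = 2.95e-06). On day 4 the difference was smaller for Stat2 (-0.28 ± 0.10, limma adjusted p = 0.0351), and the number of genes called on day 4 fell to 4 without WAT control replicate 2 and 5 without BAT control replicate 1.

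The 8 groups fell into a similar order for most of the genes. WAT day 8 controls were highest for 8 of the 9, and for Ifit1, Isg15, Irf7, Usp18, Rsad2 and Oasl2 the BAT day 8 controls came next. In Ifit1, Ifit3, Isg15, Usp18 and Stat2 the BAT day 8 control and EGCG groups were neighbours whose replicates 1 and 2 overlapped. A day 4 EGCG group was lowest for each gene but Ifit2. The order of Ifit2 was led by WAT day 8 EGCG, whose replicates overlapped those of BAT day 8 EGCG, and ended with BAT day 4 controls.

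Whether the EGCG change differed between depots was tested as the difference of the log2 changes, BAT minus WAT. On day 8 all 9 differences were above 0 and passed the test, where 19.4% of genes tested did in that direction. They ranged from 0.64 ± 0.15 for Ifit2 (limma adjusted p = 0.00503) to 2.64 ± 0.47 for Ifit1 (limma adjusted p = 0.000985), with 2.58 ± 0.22 for Isg15 (limma adjusted p = 6.48e-06). In replicate 3, after scaling by the median ratio, the difference was also above 0 for each gene, from 0.46 for Ifit2 to 1.99 for Ifit3. All 9 passed in each alternative fit and without each library in turn.

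On day 4, 4 of the 9 depot differences passed the test, all above 0, where 12% of genes tested did. They were Isg15 at 1.32 ± 0.22 (limma adjusted p = 0.00126), Irf7 at 1.13 ± 0.28 (limma adjusted p = 0.0125), Oasl2 at 1.12 ± 0.27 (limma adjusted p = 0.011) and Ifit2 at 0.79 ± 0.15 (limma adjusted p = 0.00237). With voom on the recovered reads the differences were 1.47 for Isg15, 1.48 for Irf7 and 0.87 for Oasl2, and these 3 calls were lost (limma adjusted p 0.138, 0.114 and 0.562). The count of 4 was 1 with voom, 9 with both tables and median-ratio scaling, and 8 with both tables without replicate 3 of WAT day 8 EGCG.

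Whether the EGCG change differed between days was tested as day 8 minus day 4. In WAT 5 of the 9 differences were below 0 and called, where 19.7% of genes tested were, and 2 were above 0, where 29.7% were. On the log2(FPKM + 1) scale Rsad2 had the largest, -1.52 ± 0.29 (limma adjusted p = 0.00117), followed by Irf7 at -0.98 ± 0.28 (limma adjusted p = 0.0134), Oasl2 at -0.95 ± 0.27 (limma adjusted p = 0.0132), Stat2 at -0.84 ± 0.15 (limma adjusted p = 0.000654) and Usp18 at -0.74 ± 0.28 (limma adjusted p = 0.0459). Isg15 at 0.73 ± 0.22 (limma adjusted p = 0.0175) and Ifit2 at 0.53 ± 0.15 (limma adjusted p = 0.0112) went the other way. The count of 7 fell to 3 with a pseudocount of 0.1, to 3 with voom, and to 4 without WAT day 4 control replicate 1. The calls of Rsad2, Irf7, Oasl2 and Usp18 were lost with the pseudocount of 0.1, at -1.43, -0.33, 0.14 and -0.10, and with voom, at -0.60, -0.20, 0.45 and 0.03 (limma adjusted p from 0.084 to 0.968). With both tables fitted together the calls of Isg15 (0.39, limma adjusted p = 0.464) and Ifit2 (0.16, limma adjusted p = 0.761) were lost. Ifit1 was then called (-0.92, limma adjusted p = 0.043). In replicate 3 Isg15 was -0.30 and Ifit2 -0.58, and 0.77 and 0.41 after scaling by the median ratio.

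In BAT 4 of the 9 day differences were called, all above 0, where 34.7% of genes tested were. On the same scale Isg15 had the largest at 1.99 ± 0.22 (limma adjusted p = 1.72e-05), and Ifit3 followed at 1.33 ± 0.52 (limma adjusted p = 0.047), Stat2 at 0.56 ± 0.15 (limma adjusted p = 0.00688) and Ifit2 at 0.37 ± 0.15 (limma adjusted p = 0.0476). The count fell to 2 without replicate 2 of any of the 4 BAT groups and under several other fits. In replicate 3 as given, without scaling, the differences were 0.63 for Isg15, 0.87 for Ifit3, 0.04 for Stat2 and -0.03 for Ifit2. After scaling by the median ratio they were 0.42, 0.64, -0.11 and -0.15 in that order. A pseudocount of 0.1 lost the call of Ifit2 (0.29, limma adjusted p = 0.225). It gained calls above 0 for Ifit1 (1.60, limma adjusted p = 0.034), Usp18 (1.41, limma adjusted p = 0.0155) and Oasl2 (1.25, limma adjusted p = 0.0077). With both tables and median-ratio scaling, Oasl2 (-0.55, limma adjusted p = 0.039) and Irf7 (-0.55, limma adjusted p = 0.022) were instead called below 0. The direction of Oasl2 thus depended on the fit. With voom Usp18 was called (1.63, limma adjusted p = 0.022), and Ifit2 and Ifit3 were not.

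The levels of the 9 genes were described together by the mean of their standardised profiles over the 16 libraries of replicates 1 and 2. Usp18 lay closest to it (Pearson r = 0.995) and Ifit2 farthest (r = 0.677). Among pairs, Oasl2 and Irf7 were most alike (r = 0.993) and Rsad2 and Ifit2 least (r = 0.474). Of 10192 other tested genes with a mean of at least 5 FPKM in some group, the 8 most like the profile were Igtp (r = 0.989), Parp12 (r = 0.987), Irf9 (r = 0.986), Dhx58 (r = 0.985), Ifih1 (r = 0.984), Nmi (r = 0.982), Ifi47 (r = 0.981) and Gbp3 (r = 0.980). These correlations are descriptions over 16 libraries that share their groups and their scaling.

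The rest of the pathway was read from lists by role. Counts in each list are to be read against the shares of all genes tested, which were 34.4% higher and 19.3% lower in WAT on day 4, 44.7% and 18.9% in WAT on day 8, 27.9% and 20.6% in BAT on day 4, and 46.5% and 26.1% in BAT on day 8. Against them, 3 of 7 receptors and kinases higher in BAT on day 8 and 2 of 5 negative regulators higher in WAT on day 8 are near the share of all genes, and the nucleic acid sensors higher with EGCG are below it in each comparison. No interferon ligand of 14 passed the filter on low values, and no group mean of a ligand exceeded 0.0968 FPKM. Ifnb1, the interferon beta gene, had 1 to 6 reads in 4 of the 24 libraries and 0 in the others, and at most 0.0866 FPKM as a group mean. Ligand levels this low limit what these libraries can show.

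Receptors and kinases changed in each direction, with 5 of 7 tested genes higher and 1 lower in WAT on day 4, 5 and 2 in WAT on day 8, 4 and 1 in BAT on day 4 and 3 and 3 in BAT on day 8. Ifnar1, a chain of the type I receptor, was higher with EGCG in each, by 0.26, 0.36, 0.14 and 0.55 in that order, though in BAT on day 4 it was not called with another scaling. Ifnar2, the other chain, was higher in WAT on day 4 (log2 change 0.44 ± 0.09), not called in BAT on day 4 (0.07 ± 0.09), and lower on day 8 in WAT (-0.55 ± 0.09) and BAT (-0.71 ± 0.09). Ifngr1, a chain of the interferon gamma receptor, was the lowest of the list throughout, with log2 changes of -0.58, -1.37, -0.58 and -2.06. The highest was Jak1 in WAT (0.82 on day 4 and 0.47 on day 8) and Ifngr2 in BAT (0.59 on day 4 and 0.75 on day 8). With median-ratio scaling the counts of higher and lower receptor and kinase genes were 2 and 2 in WAT on day 8 and 2 and 3 in BAT on day 8.

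Irf9, the DNA-binding partner of Stat2, fell by 1.02 in WAT on day 4, 1.17 in WAT on day 8 and 0.58 in BAT on day 4 on the log2 scale. In BAT on day 8 Irf9 stood at 11.2 FPKM in controls and 11.4 with EGCG, a log2 change of 0.03 ± 0.07 that turned to -0.16 with median-ratio scaling. Stat2 was likewise not called there. Of the other interferon regulatory factors, Irf5 was higher on day 4 in WAT (0.30) and BAT (0.86) and on day 8 in BAT (0.29), Irf3 was not called in WAT on day 8 (0.04), and Irf1 was lower on day 8 in WAT (-1.24) and BAT (-0.80).

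Other interferon-induced effectors, such as oligoadenylate synthetases and Mx GTPases, were mostly lower with EGCG in WAT. There 38 of 47 tested were lower and 3 higher on day 4 (median log2 change -0.70), and 45 were lower and 1 higher on day 8 (median -1.59). In BAT 20 were lower and 4 higher on day 4 (median -0.29), and 31 were lower and 4 higher on day 8 (median -0.51). Rtp4 had the largest fall on day 4, with a log2 change of -3.20 ± 0.18 in WAT and -2.36 ± 0.18 in BAT, and Ifi27l2a on day 8, with -6.06 ± 0.19 in WAT, from 83.8 to 0.266 FPKM, and -2.995 ± 0.19 in BAT. Pml, which organises nuclear bodies, went up in all 4, with the largest rise of the list in WAT on day 8 (0.41) and in BAT on day 4 (1.17) and day 8 (1.05), and Slfn2 had the largest in WAT on day 4 (1.23). Mx1, an antiviral GTPase, was low throughout, at most 2.89 FPKM as a group mean, and was called lower in WAT on day 4 (-0.52) and day 8 (-1.92) and not in BAT (-0.15 and -0.20).

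Interferon gamma type GTPases and antigen processing genes were lower in 12 of 14 and higher in 2 in WAT on day 4, lower in 13 and higher in 0 in WAT on day 8, lower in 7 and higher in 2 in BAT on day 4, and lower in 9 and higher in 2 in BAT on day 8. Iigp1 was the lowest in each, with log2 changes of -2.46, -3.84, -1.92 and -2.15. Tap1, a peptide transporter subunit, was the highest on day 4 (0.40 in WAT and 0.88 in BAT), Tap2 in WAT on day 8 (-0.11, not called) and Irgm1 in BAT on day 8 (0.69).

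The list of enzymes that attach ISG15 to proteins held 3 genes. Uba7, the activating enzyme, fell in each comparison, with log2 changes of -1.25 and -1.58 in WAT on day 4 and day 8 and -0.73 and -1.16 in BAT. The highest of the 3 were Herc6 on day 4 (-0.24, not called, in WAT and 0.36 in BAT) and Ube2l6, the conjugating enzyme, on day 8 (-0.36 in WAT and 0.13, not called, in BAT). In all 2, 3, 2 and 1 of the 3 were lower in that order, and 1, Herc6 in BAT on day 4, was higher.

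Of 13 nucleic acid sensors and adaptors, 5 were lower and 3 higher in WAT on day 4, 7 and 2 in WAT on day 8, 6 and 2 in BAT on day 4, and 6 and 4 in BAT on day 8. Dhx58 was the lowest on day 4 (-1.28 in WAT and -0.81 in BAT) and Zbp1 on day 8 (-2.73 and -1.20). Tmem173, which encodes the adaptor STING, was the highest in each (0.64, 0.45, 0.54 and 0.96). With median-ratio scaling 7 were lower and 1 higher in BAT on day 8.

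Chemokines induced by interferon were lower in 2 of 3 tested in WAT on day 4, 3 in WAT on day 8, 2 in BAT on day 4 and 0 in BAT on day 8. Cxcl10 had the largest fall in WAT, with log2 changes of -1.87 ± 0.37 on day 4 and -2.51 ± 0.37 on day 8, and was not called in BAT (-0.62 and -0.07). Ccl5 was the lowest in BAT (-0.75 on day 4, and -0.26, not called, on day 8) and the highest in WAT (-0.52, not called, and -0.76).

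Of 5 tested negative regulators of the pathway, 3 were higher and 0 lower in WAT on day 4, 2 and 2 in WAT on day 8, 2 and 0 in BAT on day 4, and 3 and 1 in BAT on day 8. Socs3, an inhibitor of JAK signalling, was the highest on day 4 (1.94 ± 0.19 in WAT and 0.89 ± 0.19 in BAT), Ptpn2 in WAT on day 8 (0.44) and Socs1 in BAT on day 8 (0.53). The lowest were Socs1 in WAT on day 4 (0.02, not called) and Ptpn6 in the other comparisons (-0.75 in WAT on day 8, -0.23, not called, and -0.63 in BAT). With median-ratio scaling 1 was higher and 3 lower in WAT on day 8, and 0 higher and 1 lower in BAT on day 8.

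Only the pathway values named above are followed here under median-ratio scaling or quantile normalization. Calls were lost for Ifnar1 and Herc6 in BAT on day 4, Irf5 in WAT on day 4 and BAT on day 8, and Socs1 in BAT on day 8. Calls were gained for Ccl5 and Herc6 in WAT on day 4 and for Tap2 and Irf3 in WAT on day 8. Other list genes changed too, such as Jak2 and Tyk2 in WAT on day 8, whose calls were lost, and Mavs in WAT on day 4, which gained 1. Irf3 in WAT on day 8 turned to -0.16 with median-ratio scaling. Named values not called by any of these fits changed sign for Socs1 in WAT on day 4 and Irf9 and Ube2l6 in BAT on day 8. Uncalled genes not named there did so too, such as Tyk2 (0.157 to -0.025) and Ifi35 (0.006 to -0.185) in BAT on day 8 with median-ratio scaling. The same scaling kept the 9 genes at 9 lower in WAT on day 4, 8 lower in WAT on day 8, 7 lower and 1 higher in BAT on day 4, and gave 7 lower and 1 higher in BAT on day 8.

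**Figure D4:**
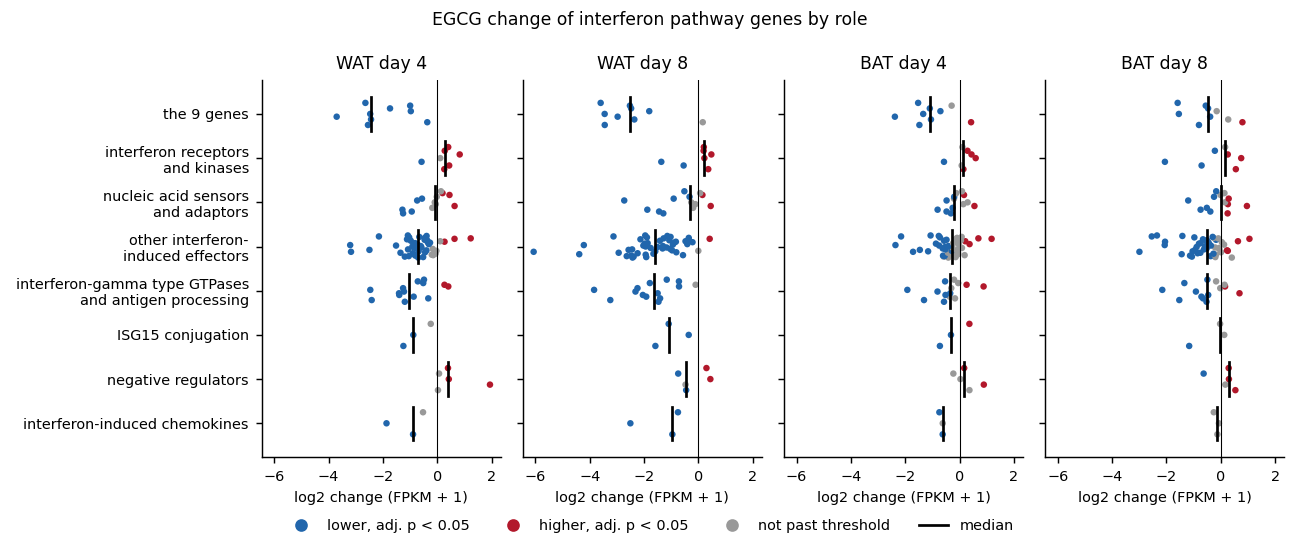
Log2 change with EGCG on the log2(FPKM + 1) scale of the 9 genes and of the tested genes of 7 pathway lists; each point is a gene, coloured by direction where the adjusted p was under 0.05, and black lines are medians. Effectors and GTPases lie mostly left of 0 in each panel. Receptors and kinases lie on each side of it. On day 8 their medians were 0.20 in WAT and 0.16 in BAT, against 0.17 and 0.17 for all genes tested.

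Markers of the cell types that the cultures could hold were set beside these values. The summed FPKM of 8 mature adipocyte markers was lower with EGCG in each depot and on each day. In WAT it went from 3652.6 to 4273.0 in WAT day 4 controls to 980.5 to 1152.2 with EGCG on that day, and from 5629.1 to 6236.7 in controls to 231.67 to 710.74 with EGCG on day 8. It was higher in BAT than in WAT controls, where the 9 genes were lower. In controls of each depot it was higher on day 8 than on day 4, as were most of the 9 genes. The summed FPKM of 12 macrophage markers was higher with EGCG on day 4 and lower on day 8. In WAT it was 83.4 to 91.8 in controls and 198 to 214 with EGCG on day 4, and 143 to 179 and 27.2 to 63.6 on day 8. In BAT it was 195 to 219 and 412 to 496 on day 4, and 138 to 153 and 63.6 to 65.0 on day 8. The 9 genes were mostly lower on each day, though in BAT on day 8 only 3 of them had no overlap between groups. Lyz2 was the largest part of the macrophage sum, going from 137.8 to 334.5 FPKM in BAT on day 4. Of 10 tested macrophage markers, 8 were higher and 0 lower in WAT on day 4, and 6 and 0 in BAT. On day 8, 10 were lower and 0 higher in WAT, and 9 and 0 in BAT. Between control groups, 10 of the 10 were higher on day 8 than on day 4 in WAT, where all 9 genes were higher. In BAT 1 was higher and 2 lower, where 8 of the 9 genes were higher. The shares of genes tested that were higher were 27.7% in WAT and 28.7% in BAT. Against WAT controls, 8 were higher and 0 lower in BAT on day 4. On day 8, 0 were higher and 7 lower, where 22% of genes tested were lower. The 9 genes were lower on both days. The lowest WAT day 8 EGCG value of each sum above was the depressed replicate 3. The part of adipocytes and macrophages in the changes was not tested.

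Other immune markers were near 0. The 6 lymphocyte markers summed to at most 0.473 FPKM in any library, with Cd3g and Nkg7 at 0 in every group mean of replicates 1 and 2. The 6 dendritic cell markers summed to at most 5.47 FPKM, nearly all of it Zbtb46, and Siglech did not exceed a group mean of 0.00963 FPKM. Endothelial markers, 8 in all, summed to 18.3 to 54.3 FPKM and their sum was higher in every EGCG than in every control library on day 4.

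Of the labelled cells, 7 preadipocyte and stromal markers were lower in sum with EGCG in WAT. Their summed FPKM was 2570.7 to 2904.4 in WAT day 4 controls and 1430.7 to 1688.5 with EGCG, and 2838.5 to 3731.1 in WAT day 8 controls and 630.79 to 1476.0 with EGCG, the lowest being the depressed replicate 3. In BAT it was 1226.5 to 1343.1 and 1120.0 to 1278.9 on day 4, with overlap, and 1345.9 to 1781.7 and 1131.5 to 1225.1 on day 8, with none. Col1a1 was most of this sum, at a mean of 2267 FPKM in WAT day 4 controls and 1196 with EGCG, and single markers were mixed. Of 6 tested, 1 was higher and 3 lower in WAT on day 4, and 1 and 4 on day 8. In BAT 2 were higher and 2 lower on day 4, and 1 and 3 on day 8, where Pdgfrb went from 62.0 to 219 FPKM. The part of stromal cells in the changes of the 9 genes was not tested.

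**Figure D5:**
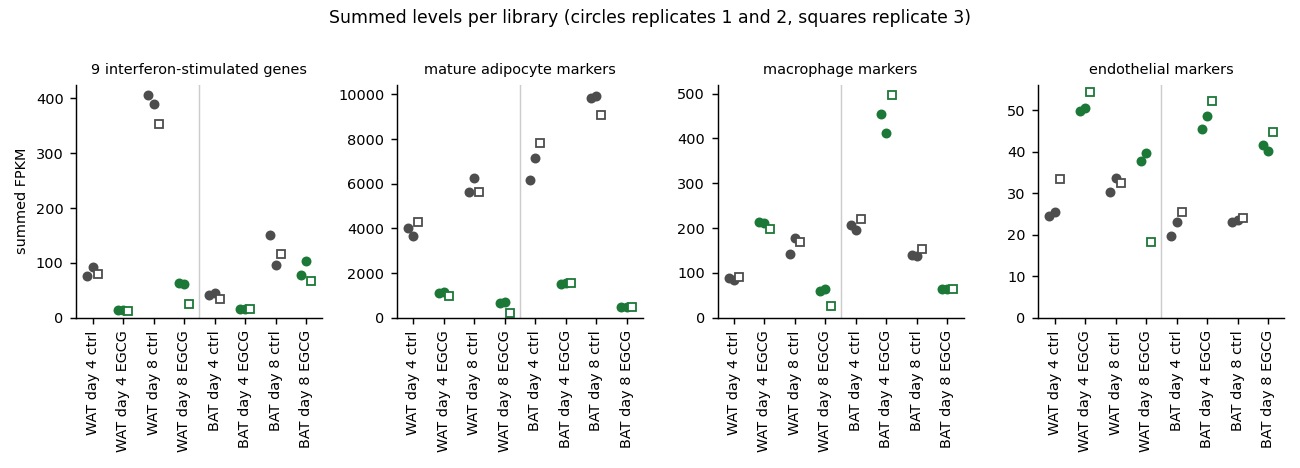
Summed FPKM per library of the 9 genes and of mature adipocyte, macrophage and endothelial markers in the 8 groups; circles are replicates 1 and 2 and squares replicate 3. The macrophage sum is higher with EGCG on day 4, where the sum of the 9 genes is lower, and lower with EGCG on day 8. From day 4 to day 8 of the controls, both sums rise in WAT, and in BAT the macrophage sum falls where that of the 9 genes rises.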

How the data were processed

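A total of 24 RNA-seq libraries from cultured mouse adipose stromal vascular cells were used. The authors deposited FPKM values in 2 tables that were made separately, replicates 1 and 2 (16 libraries) in the first and replicate 3 (8 libraries) in the second. The submitters' processing notes name FastQC 0.11.9, HISAT2 2.2.0, HTSeq 0.11 and mm9. The strand setting is not given in the sources used here. All 37310 identifiers and lengths matched GENCODE vM1 (NCBIM37, mm9), and lengths were those of the longest transcript. Symbols come from that annotation. Reads on genes were recovered from the deposited FPKM, and 100% of values were whole at a tolerance of 0.01 reads.

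Groups were taken from the labels. Genes with at least 1 FPKM in at least 2 of the 16 libraries were fitted as log2(FPKM + 1) with limma 3.58.1 (R 4.3.3), as 8 group means with a trended prior. The 12 contrasts were formed from them, with Benjamini-Hochberg adjustment of each over the 14095 genes and a threshold of 0.05. The code was tested on simulated data. Precision is that of 8 residual degrees of freedom, and read counts cover counting error only. Replicate 3 was rescaled by the median ratio only where stated. The Irf7 locus overlaps Phrf1, whose reads cannot be told apart without strand. Ifi27, Psmb9 and Ciita did not match a single identifier and were left out.

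The genes and lists were chosen with earlier results of these data known. Named were the 9 genes in every contrast, and in each pathway list the gene with the largest and the smallest change of each EGCG contrast, with Irf9, Ifnar1, Ifnar2, Ifnb1, Mx1 and Cxcl10 in any case. The alternatives were a pseudocount of 0.1, no filter on low values, median-ratio scaling, quantile normalization, voom on the recovered reads, a replicate block, both tables in one fit, and leaving out each library. One list is summarised in part, since an item of it is not reported here.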

Additional observations from a re-analysis of the deposited data

Results flagged for a closer look

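These 24 differences passed the test of a difference between depots or days. Between depots on day 4 (BAT minus WAT, log2 scale), the EGCG change differed by 0.79 for Ifit2, 1.32 for Isg15, 1.13 for Irf7 and 1.12 for Oasl2.

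On day 8 the depot difference was 2.64 for Ifit1, 0.64 for Ifit2, 2.63 for Ifit3, 2.58 for Isg15, 1.91 for Irf7, 1.66 for Stat2, 2.01 for Usp18, 1.97 for Rsad2 and 2.01 for Oasl2. Replicates 1 and 2 of the BAT day 8 controls differed in 1 direction for all 9 genes, as did those of BAT day 8 EGCG, and the day 8 difference kept its call for all 9 without each of those libraries.

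Between days in WAT (day 8 minus day 4) the change differed by 0.53 for Ifit2, 0.73 for Isg15, -0.98 for Irf7, -0.84 for Stat2, -0.74 for Usp18, -1.52 for Rsad2 and -0.95 for Oasl2. In BAT it differed by 0.37 for Ifit2, 1.33 for Ifit3, 1.99 for Isg15 and 0.56 for Stat2. The WAT calls of Irf7, Usp18, Rsad2 and Oasl2 were lost with a pseudocount of 0.1 and with voom, where Oasl2 was 0.14 and 0.45. Those of Isg15 and Ifit2 were lost with both tables fitted together, at 0.39 and 0.16.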

How the results depend on the processing

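Over single genes and contrasts, 881 of 972 values under other settings and 508 of 576 values without 1 library kept their direction and their side of the threshold. Counts of the 9 genes called stayed within 1.5 times their value in all but these cases, and the cause was not tested. In BAT on day 8 the count of 7 for EGCG was 3 with no filter on low values and 3 to 8 with 1 library left out. For BAT against WAT controls on day 4 the count of 9 was 4 to 8 with 1 library left out. The depot difference on day 4 (4 genes) was 1 with voom, 9 with both tables and median-ratio scaling, and 8 with both tables without replicate 3 of WAT day 8 EGCG. The day difference in WAT (7 genes) was 3 with a pseudocount of 0.1, 3 with voom and 4 to 6 with 1 library left out. The day difference in BAT (4 genes) was 2 with no filter, median-ratio scaling, quantile normalization, both tables or the replicate block, and 2 to 6 with 1 library left out.

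The replicate numbers showed no shared effect between groups over all genes tested. Whether libraries with the same number came from the same isolation cannot be told from this. Over 28 pairs of groups, replicate 1 minus replicate 2 correlated between -0.079 and 0.081. The replicate block gave 6 in place of 7 genes called for EGCG in BAT on day 8, where Usp18 was lost (limma adjusted p = 0.062), and 2 in place of 4 for the day difference in BAT.

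Some values changed sign. Ifit2 with EGCG in WAT on day 8 was -0.0311 with median-ratio scaling, -0.25 with both tables and -0.0702 with both tables and median-ratio scaling. The day difference in WAT was 0.30 (pseudocount of 0.1) and 0.65 (voom) for Ifit1, 0.0309 (voom) for Usp18, 0.14 (pseudocount of 0.1) and 0.45 (voom) for Oasl2, and -0.0309 (median-ratio scaling) and -0.12 (both tables) for Ifit3. The day difference in BAT was 0.29 and 0.34 for Irf7, 0.42 and 2.13 for Rsad2 and 1.25 and 1.72 for Oasl2, with a pseudocount of 0.1 and voom in that order. With both tables and median-ratio scaling it was called below 0 for Irf7 (-0.55) and Oasl2 (-0.55). With 1 library left out, the EGCG change in BAT on day 8 ranged from -0.20 to 0.74 for Ifit3 and from -0.34 to 0.0345 for Stat2, the day difference in WAT from -0.0327 to 0.19 for Ifit3, and the day difference in BAT from -0.50 to 0.0904 for Irf7, -0.596 to 0.0749 for Rsad2 and -0.42 to 0.30 for Oasl2. Rsad2 in BAT day 4 EGCG libraries, at 1 to 6 reads, is at the limit of depth.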
